A study of Mus musculus with 27 samples.

Results

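Acute stimulation of macrophages through an endosomal and a surface Toll-like receptor (TLR) was compared in 5 of the 27 arrays of a mouse series. The arrays were 3 of bone marrow derived macrophages (BMDM) given CpG for 4 h (acute CpG, replicates 1 to 3) and 2 of BMDM given Pam3CSK4 for 4 h (acute Pam3CSK4, replicates 1 and 3). They were taken by their titles. Acute Pam3CSK4 replicate 2 has an empty column in the table of normalized values and was not used in the comparison. All cells came from female C57BL/6 mice of 6 to 8 weeks and had been grown for 7 days in medium conditioned by L929 fibroblasts. Acute cells had no earlier ligand. The dose of Pam3CSK4 was 100 ng/ml. The sample labels give CpG at 100 µM and the study's methods state a lower dose. Naïve BMDM (3 arrays, no ligand) and cells given the same ligand for 24 h, washed and re-stimulated for 4 h (3 arrays for CpG and 3 for Pam3CSK4) are shown beside them. The study describes the replicates as different mice in one place and as independently made pools of several mice in another. The p-values measure the spread between these samples, which may be partly technical. The main fit leaves out the slide that same-numbered arrays share. The values are log2 normalized intensities of 1-colour arrays, and a difference is acute CpG minus acute Pam3CSK4, so that a positive value means a higher level after CpG.

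CpG DNA is sensed by TLR9 inside endosomes, and Pam3CSK4, a synthetic lipopeptide, by TLR2 paired with TLR1 at the cell surface. Both receptors signal through the adaptor MyD88 to NF-κB and MAP kinases, which drive inflammatory cytokine genes. Endosomal TLRs can also engage interferon regulatory factors and so the type I interferon genes, whose products act back on the cell through the interferon receptor and raise a large set of interferon-stimulated genes.

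On the 5 arrays 43.7% to 49.1% of probes were well above background. Arrays of the same replicate number share a slide, so slides 1 and 3 each hold 1 array of both groups and slide 2 holds acute CpG alone. All 10 macrophage markers, Csf1r and Lyz2 among them, were above background on all 5 arrays. Replicate 3 stood apart in these groups and in naïve cells: the granulocyte gene Ltf was at 11.79, 13.05 and 4.41 in acute CpG replicates 1, 2 and 3, at 11.84 and 4.02 in acute Pam3CSK4 replicates 1 and 3, and at 10.86, 11.43 and 2.09 in naïve cells. Ly6g, Camp, Ngp and Mpo were also lowest on replicate 3 in each of these groups. Elane was not: it was at 11.82, 11.46 and 11.58 after CpG, 12.12 and 11.92 after Pam3CSK4, and 12.29, 12.23 and 11.83 in naïve cells. On both acute replicate 3 arrays it was the brightest neutrophil marker. The summed level of the 6 neutrophil markers ranged from 11.79 to 15.14 in acute CpG and from 12.09 to 14.47 in acute Pam3CSK4, and replicate 3 is 1 of 3 arrays in one group and 1 of 2 in the other. The conventional dendritic cell markers were also unequal: their summed level was 7.83 to 8.35 in acute CpG and 5.72 to 6.73 in acute Pam3CSK4. Of them, 3 of 5 were at background on all 5 arrays. Zbtb46 was at 7.27, 7.75 and 7.55 against 6.02 and 4.06, beside 4.31, 4.73 and 3.11 in naïve cells. Clec9a was at 7.14 on acute CpG replicate 1 and at 2.36 to 3.24 on the other arrays compared. Of the 4 markers of plasmacytoid dendritic cells, Siglech lay between 15.54 and 16.60, Pacsin1 between 12.66 and 13.96 and Ccr9 between 5.46 and 7.29, all above background on the 5 arrays, while Klk1 was above background on none. Their summed level was 15.73 to 16.81 in acute CpG and 16.22 to 16.53 in acute Pam3CSK4. Summed levels of the T cell, B cell, NK cell, mast cell, megakaryocyte and fibroblast lists overlapped between the groups, as did those of the erythroid list, in which 3 of 4 markers were at background throughout. The part of these cell types in the results was not tested. In bulk samples, more cells of a type and more RNA per cell cannot be told apart.

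The test covered 25399 probes that were detected in CpG or Pam3CSK4 cells on 2 arrays or more. Of them, 7 passed an adjusted p under 0.05 and a 1.5-fold difference (limma, Benjamini-Hochberg), which is 0.0276% of the probes tested (0.0197% higher and 0.00787% lower after CpG) and, with 1 probe a gene, 0.0322% of genes. Higher after CpG were the probes of Oasl1, Ccl12, Trim30c, 1 of the 2 probes of Gbp7, and a probe that carries no gene symbol, NAP070743-1. Higher after Pam3CSK4 were Gm2022 and a long noncoding RNA region. Of the called probes, only those of Oasl1 and Ccl12 were well above background in both groups. The rest were so only in the group where they were high, and they entered the test through that group. NAP070743-1, Gm2022 and the region fall outside the rule for named genes and were chosen after their values were seen, as were the uncalled genes named below other than 19 fixed by role. An unadjusted p under 0.05 was reached by 1343 probes (5.29%). With only the 5 arrays in the fit no probe passed, where 882 probes had an unadjusted p under 0.05. The calls used the spread over 22 arrays of 8 groups. Without Pam3CSK4 replicate 3 no probe was called higher after CpG and 10 were called lower, and without Pam3CSK4 replicate 1 the counts were 33 and 15, so the counts depend on which single Pam3CSK4 array is kept. Without CpG replicate 3 the counts were 14 and 2. With the slide as a fixed block 4 of the 7 calls were kept, those of Oasl1, Ccl12, Gm2022 and the region.

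Oasl1, an interferon-induced relative of the oligoadenylate synthetases, was at 15.73, 15.06 and 17.41 on the acute CpG arrays and at 11.82 and 11.62 on the acute Pam3CSK4 arrays. All CpG arrays lay above both Pam3CSK4 arrays, which lay within the naïve range of 11.39 to 12.67. The difference was 4.35 ± 0.66 (SE), 20.3-fold, with an adjusted p of 0.0303 in limma, 0.0410 with the slide as a fixed block and 0.0135 with it as a random block. The call held under 13 of 19 alternatives and ended with no detection filter (0.0583), with Pam3CSK4 replicate 2 kept from its scanner file (0.120), without Pam3CSK4 replicate 1 (0.0515), without Pam3CSK4 replicate 3 (0.256) and in both fits of only the 5 arrays. The difference was 3.91 within slide 1 and 5.79 within slide 3. In mm9, the build of the array design, its probe lies at chr5:115387861-115387920.

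Ccl12, a chemokine for monocytes, was at 11.40, 12.03 and 12.85 after CpG, at 8.57 and 7.08 after Pam3CSK4, and between 4.62 and 5.84 in naïve cells. Both ligand groups lay above the naïve arrays, and the CpG arrays above all others. The difference was 4.27 ± 0.56 (SE), 19.3-fold (limma adjusted p = 0.00798, 0.0410 with the slide as a fixed block and 0.00814 as a random block), and 2.83 and 5.77 within slides 1 and 3. The call held under 16 of 19 alternatives and ended without Pam3CSK4 replicate 3 (limma adjusted p = 0.153) and in both fits of only the 5 arrays. The probe lies at chr11:81916764-81916823 (mm9).

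Trim30c, a member of a family of TRIM ubiquitin ligase genes with close copies nearby, was at 7.12, 7.52 and 10.32 after CpG, and not well above background after Pam3CSK4 at 3.58 and 2.81. Naïve arrays, at 3.65 to 6.00, were above the Pam3CSK4 arrays and below the CpG arrays. It was an estimated 35.1-fold higher after CpG (limma adjusted p = 0.0383), and the call held under 10 of 19 alternatives. Among those that ended it were the slide as a fixed block (adjusted p = 0.0949), no detection filter (0.0663), the processed signal scaled to the 75th percentile (0.0719), normexp, where the difference was 2.40 in place of 5.13 (0.264), and leaving out Pam3CSK4 replicate 3 (0.50) or CpG replicate 2 (0.0503). The probe, at chr7:111530579-111530638 (mm9), could also take RNA of related copies.

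Gbp7, an interferon-inducible guanylate-binding GTPase, has 2 probes that differ. The dimmer probe, at chr3:142213888-142213947 (mm9), was at 6.36, 6.33 and 4.47 after CpG and not well above background after Pam3CSK4 at 1.88 and 2.24. After CpG it was well above background on only 2 of the 3 arrays. It was an estimated 11.6-fold higher after CpG (limma adjusted p = 0.0303, and 0.0831 with the slide as a fixed block), and the call held under 7 of 18 alternatives. Normexp and no detection filter were among those that ended it. The log2 difference of this dimmer probe was 3.66 and ranged from 1.07 to 4.28 over all settings. The brighter probe was at 8.64, 9.08 and 11.06 against 8.30 and 7.12, a difference of 1.88 ± 0.64 (SE) that did not pass (limma adjusted p = 0.575). The brighter probe is highest and the dimmer probe lowest in CpG replicate 3, so the probes also order the CpG arrays differently.

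The probe NAP070743-1, at chr1:175415500-175415559 (mm9), was at 6.78, 6.54 and 7.54 after CpG and not well above background after Pam3CSK4, at 3.77 and 2.53. It was an estimated 13.9-fold higher after CpG (limma adjusted p = 0.0422, and 0.0949 with the slide as a fixed block), and the call held under 9 of 19 alternatives. Normexp and no detection filter were among those that ended it. The log2 difference was 3.80 and ranged from 1.34 to 4.42 over all settings.

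The probes higher after Pam3CSK4 were both dim elsewhere. Gm2022, a predicted gene, was at 7.26 and 6.53 after Pam3CSK4 and not well above background after CpG, at 4.39, 2.95 and 2.87. It was an estimated 11.3-fold lower after CpG (limma adjusted p = 0.00218). The log2 difference of Gm2022 was -3.49 and ranged from -3.98 to -1.38 over all settings. Its probe lies at chr12:89134497-89134556 (mm9). The noncoding RNA region chr15:99762797-99786472 (mm9) was at 8.25 and 7.17 after Pam3CSK4 and not well above background after CpG, at 3.79, 2.95 and 3.41. It was an estimated 20.1-fold lower (limma adjusted p = 0.00249), with a log2 difference of -4.33, or -1.95 with normexp. Both passed with the slide as a fixed block (adjusted p = 0.000395 and 0.0158) and under 16 of 19 alternatives each. Naïve arrays were at 2.17 to 2.99 for Gm2022 and at 2.69 to 4.68 for the region, and re-stimulated Pam3CSK4 arrays at 3.53 to 3.76 and 3.01 to 3.65, so only the acute Pam3CSK4 arrays were high among these groups.

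**Figure D1:**
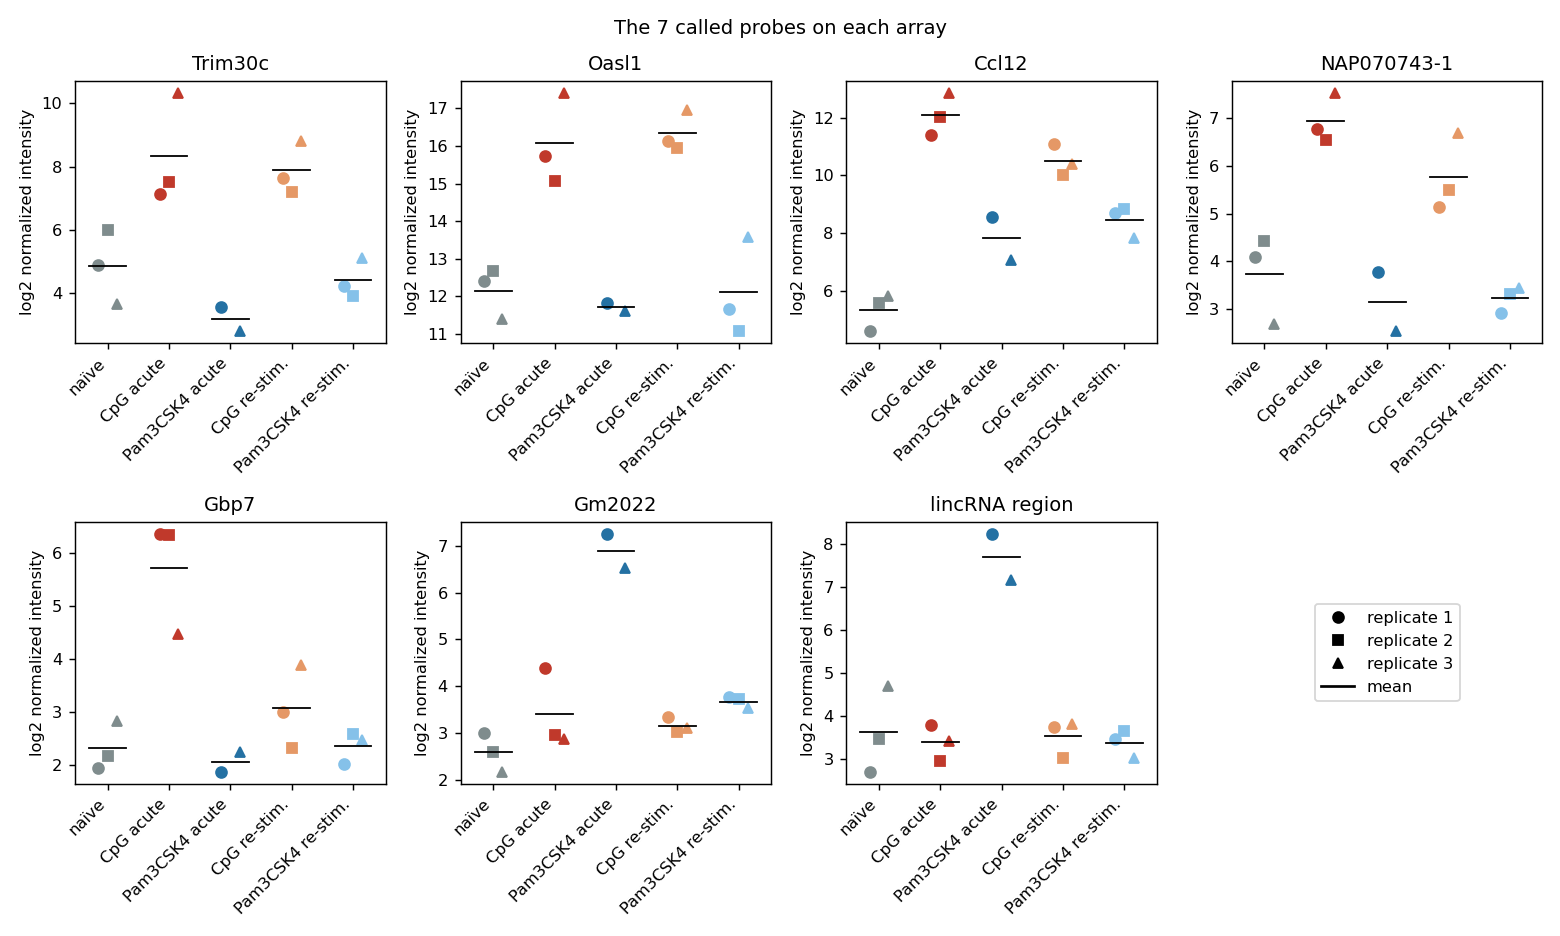
Log2 normalized intensity of the 7 called probes on each array, one panel per probe, with circles, squares and triangles for replicates 1, 2 and 3 and a line at each group's mean. Oasl1 is at 15.06 or above on all acute CpG arrays and at 11.82 or below on both acute Pam3CSK4 arrays, and Gm2022 and the noncoding RNA region are high on the acute Pam3CSK4 arrays only.

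Promoters of the called genes were read because interferon-stimulated genes often carry a response element there. The sequences are the 250 bases before the start of each gene in RefSeq (GRCm38.p6), and Ifnb1, which encodes interferon-β, is shown beside them. Capitals mark the core of the interferon-stimulated response element (ISRE), GAAANNGAAA or TTTCNNTTTC on the other strand, and the NF-κB consensus on both strands.
Oasl1 (chr5:114922990-114923239, plus strand): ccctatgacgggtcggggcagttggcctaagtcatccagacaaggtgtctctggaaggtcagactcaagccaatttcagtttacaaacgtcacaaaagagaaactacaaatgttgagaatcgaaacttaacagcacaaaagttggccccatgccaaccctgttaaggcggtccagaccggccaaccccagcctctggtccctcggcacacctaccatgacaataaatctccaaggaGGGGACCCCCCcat
Ccl12 (chr11:82101595-82101844, plus strand): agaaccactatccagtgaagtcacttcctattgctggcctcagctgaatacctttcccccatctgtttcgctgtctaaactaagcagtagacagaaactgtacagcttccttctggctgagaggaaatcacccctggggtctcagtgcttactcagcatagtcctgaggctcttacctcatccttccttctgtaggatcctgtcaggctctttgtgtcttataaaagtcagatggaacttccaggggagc
Gbp7 (chr3:142530086-142530335, plus strand): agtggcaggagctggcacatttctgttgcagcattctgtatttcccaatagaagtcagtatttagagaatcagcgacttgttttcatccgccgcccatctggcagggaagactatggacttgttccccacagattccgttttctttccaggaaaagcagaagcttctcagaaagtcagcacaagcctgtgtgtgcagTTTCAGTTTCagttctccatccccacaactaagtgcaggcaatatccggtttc
Trim30c (chr7:104400779-104401028, minus strand): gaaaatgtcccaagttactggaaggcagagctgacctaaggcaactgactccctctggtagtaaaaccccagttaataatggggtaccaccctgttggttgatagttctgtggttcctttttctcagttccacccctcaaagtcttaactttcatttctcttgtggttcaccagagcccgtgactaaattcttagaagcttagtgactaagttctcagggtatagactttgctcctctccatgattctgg
Ifnb1 (chr4:88522795-88523044, minus strand): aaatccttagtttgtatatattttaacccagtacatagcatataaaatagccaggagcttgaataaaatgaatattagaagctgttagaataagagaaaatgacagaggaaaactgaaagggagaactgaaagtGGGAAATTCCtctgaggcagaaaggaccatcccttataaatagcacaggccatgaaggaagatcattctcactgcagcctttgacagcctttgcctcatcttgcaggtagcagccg
The ISRE core was found in the window of Gbp7 and in none of the other 4. The NF-κB consensus had 2 overlapping matches before Oasl1 and 1 before Ifnb1. A window without a match says only that these letters are not in it. Of 27025 mouse genes with a promoter in the table, 3.46% held the ISRE core and 8.23% the NF-κB consensus.

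Interferon-stimulated genes stood higher after CpG than after Pam3CSK4 as a list. All 41 listed genes were tested, all 41 differences were positive, and their median was 1.57, beside -0.08 over the 18625 genes tested. In 37 of 41 the CpG arrays lay wholly above the Pam3CSK4 arrays with a mean difference of at least 1.5-fold, and in none below, where 3.15% of all genes did so upwards and 2.63% downwards. Only Oasl1 passed the adjusted threshold, where 0.0322% of all genes did. An unadjusted p under 0.05 (limma) was reached by 36 of the 41, where 955 of the 18625 genes reached it. 

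Several of the genes with large differences besides Oasl1 have antiviral products. Rsad2, which encodes viperin, was at 14.29, 14.24 and 17.31 after CpG and at 12.37 and 10.55 after Pam3CSK4. Isg15, a ubiquitin-like modifier, was at 16.27, 16.05 and 17.78 against 14.69 and 14.16. In both genes every CpG array was higher, CpG replicate 3 was the highest, and neither passed (limma adjusted p = 0.192 for each, on differences of 3.82 ± 0.76 and 2.27 ± 0.46, SE). Cmpk2, a mitochondrial nucleotide kinase, differed by 3.65. Ifit1, which binds foreign RNA, and the GTPase Mx2 differed by 3.42 each (limma adjusted p = 0.202 for all 3). The smallest differences of the list were 0.04 for Slfn5 and 0.07 for Bst2, whose groups overlapped. A second Slfn5 probe differed by 1.30.

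The list did not differ by the same amount on both slides. Its median difference was 0.54 within slide 1 and 3.14 within slide 3, with 39 and 40 of 41 genes positive. Per array, the median level of the 41 genes was 12.66, 12.88 and 14.50 after CpG, 11.90 and 11.16 after Pam3CSK4, and 11.46 to 12.09 in naïve cells. One Pam3CSK4 array lay within the naïve range and one below it, and CpG replicate 3 lay above the other CpG arrays. Without Pam3CSK4 replicate 3 the count was 35 of 41 (4.74% of all genes) with a median of 1.14, and without CpG replicate 3 it was 34 (5.20%) with a median of 1.29. These counts were chosen after seeing the data.

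**Figure D2:**
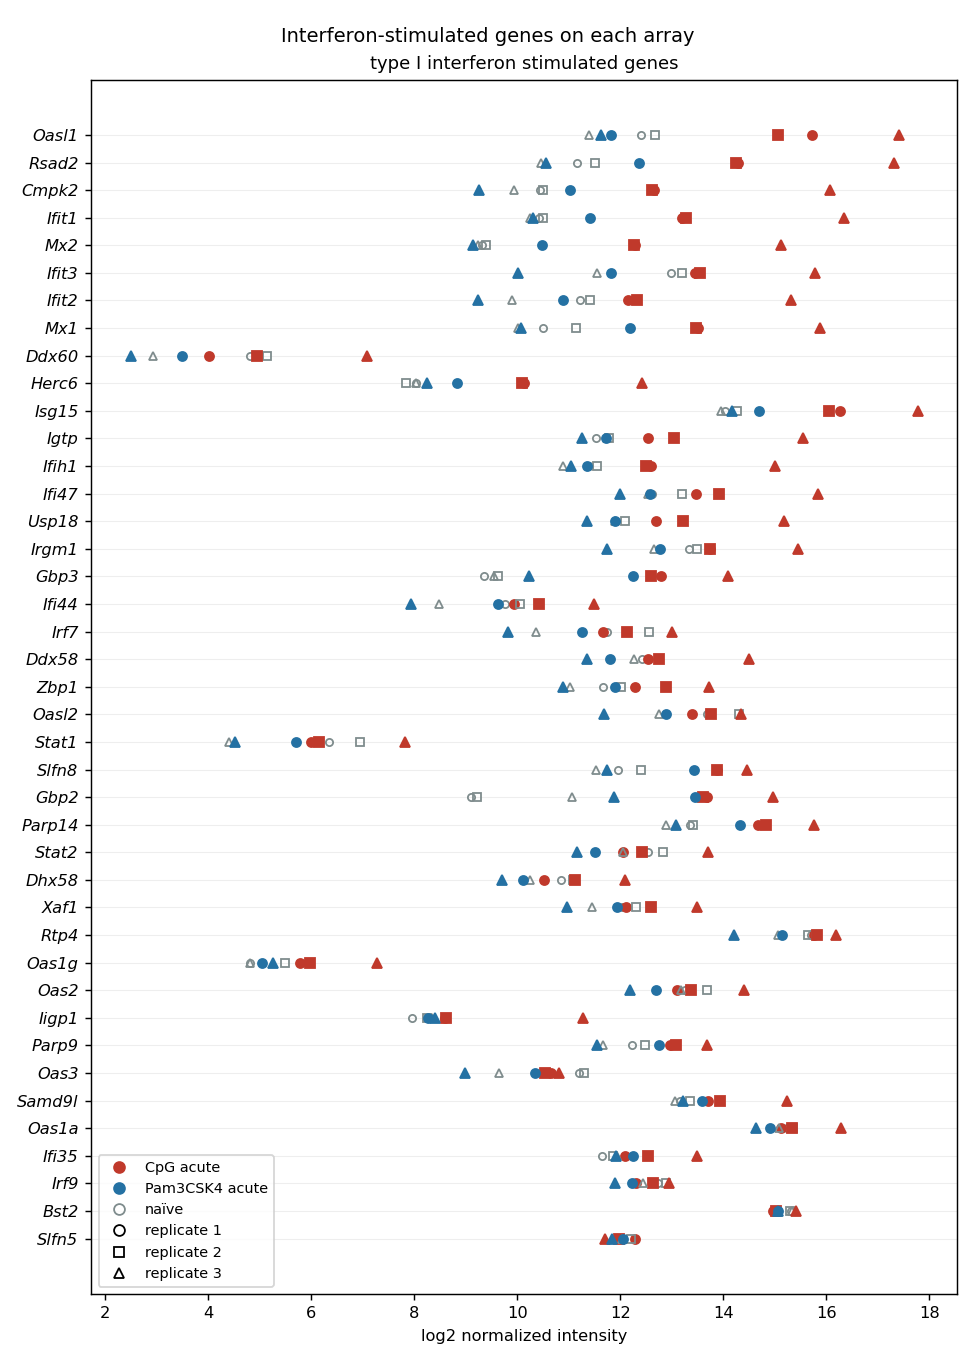
Log2 normalized intensity of the 41 interferon-stimulated genes on the acute CpG (red), acute Pam3CSK4 (blue) and naïve (open grey) arrays, ordered by the difference, with a symbol for each replicate number. In 37 genes all red points lie right of both blue ones by a mean of at least 1.5-fold, and the red triangle, CpG replicate 3, is the rightmost point of most genes.

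Of the 41 genes, 30 had a promoter in the table, and 16 of these (53.3%) held the ISRE core. The median difference was 1.71 in the 16 genes that held it and 1.78 in the 14 that did not, values close to each other. Oasl1, with the largest difference, held none.

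Among interferon genes and interferon regulatory factors, 11 of 13 were tested and none was called. Ifnb1 was at 9.05, 8.30 and 12.25 after CpG and at 6.67 and 4.45 after Pam3CSK4, beside 2.93 to 3.13 in naïve cells. Both ligand groups were above naïve and the CpG arrays above both Pam3CSK4 arrays, with a difference of 4.31 ± 0.93 (SE, limma adjusted p = 0.202). Ifnb1 was called under median scaling (adjusted p = 0.0481) and under no other setting. Irf7, the factor that amplifies interferon gene transcription, was at 11.66, 12.13 and 13.00 against 11.25 and 9.83, and naïve arrays at 10.37 to 12.55 overlapped both groups (difference 1.72, limma adjusted p = 0.524). Irf1 differed by 1.45 (limma adjusted p = 0.469). Irf5, a factor downstream of MyD88, differed by -0.07 (0.53 under median scaling), with a 95% confidence interval of -0.59 to 0.45.

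**Figure D3:**
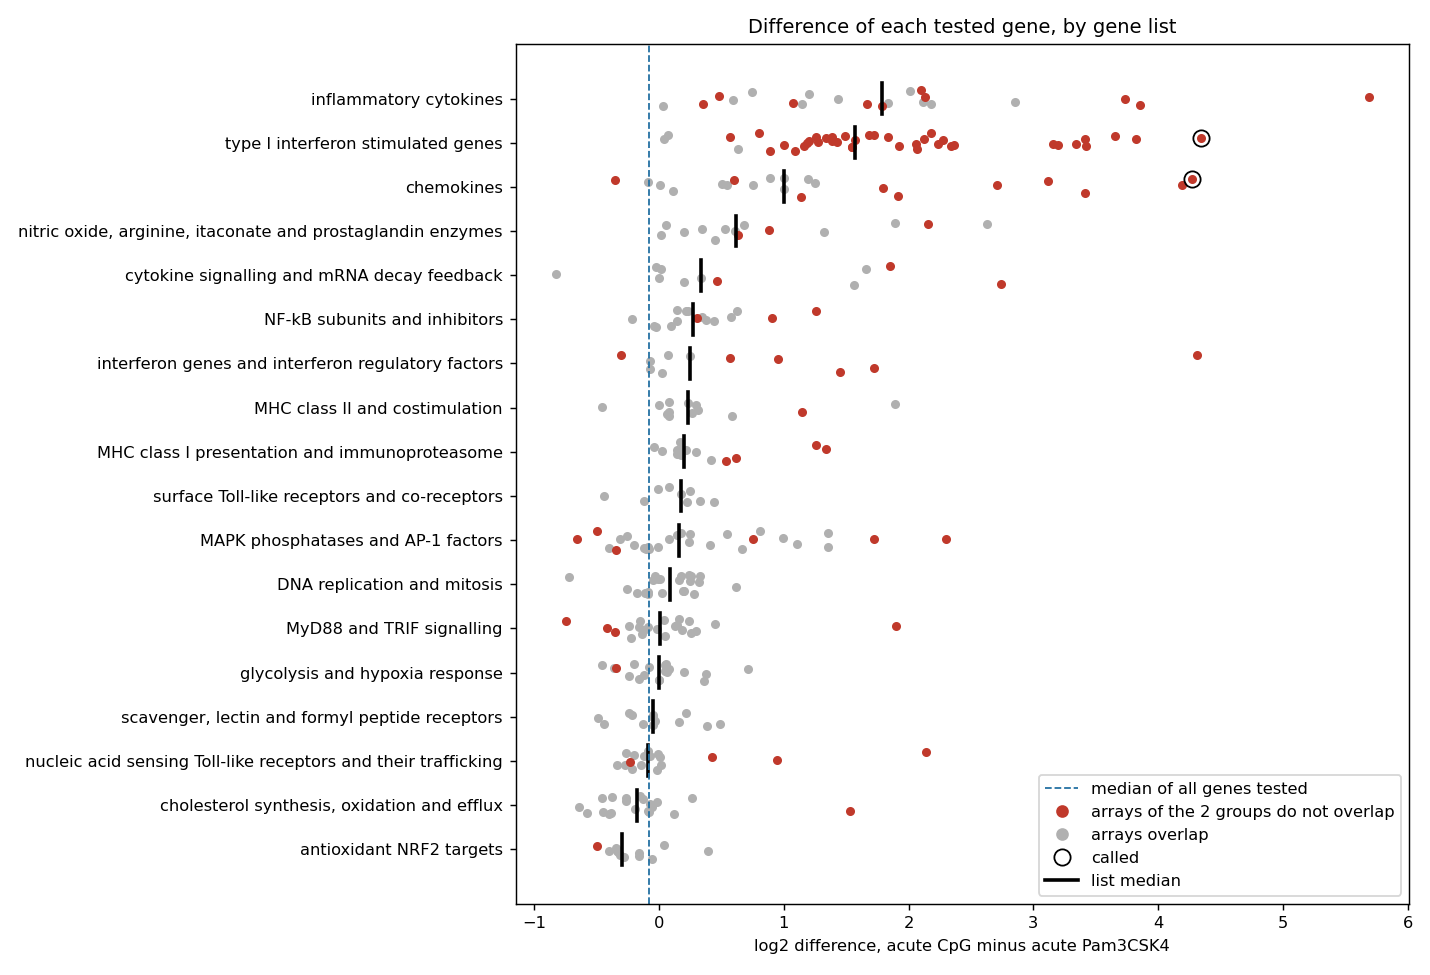
Log2 difference, acute CpG minus acute Pam3CSK4, of every tested gene in each of 18 lists, with a black bar at the list's median and a dashed line at the median of all genes tested (-0.08). Red points are genes whose arrays do not overlap between the groups, and rings mark the called genes Oasl1 and Ccl12. The lists with the highest medians are cytokines (1.79), interferon-stimulated genes (1.57) and chemokines (1.00).

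Cytokine genes stood above naïve after both ligands, and their means were higher after CpG. The list's median was 4.03 above naïve after CpG and 2.36 above naïve after Pam3CSK4. Of 24 listed genes 21 were tested, all 21 differences were positive with a median of 1.79, none was called, and in 8 the CpG arrays lay wholly above by at least 1.5-fold, where 3.15% of all genes did. Il12a, Il33 and Lif were not above background on enough arrays.

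Il12b, the shared subunit of interleukins 12 and 23, had the largest difference of any tested probe. It was at 15.14, 14.64 and 14.88 after CpG, at 11.23 and 7.16 after Pam3CSK4 and at 3.02 to 3.88 in naïve cells. The CpG arrays lay close together and the Pam3CSK4 arrays far apart, and the difference of 5.69 ± 1.03 (SE) had a limma adjusted p of 0.116. It was called when all 9 groups entered the fit, when the arrays were scaled by their medians and without Pam3CSK4 replicate 1, and its difference was 3.65 without replicate 3. It was 3.91 within slide 1 and 7.71 within slide 3. Il6 was at 13.90, 14.16 and 16.24 against 12.15 and 9.91, a difference of 3.73 ± 0.96 (SE, limma adjusted p = 0.311). Il10, an anti-inflammatory cytokine, was at 10.63, 11.02 and 9.89 against 7.92 and 8.90. Unlike Il12b and Il6, it had the larger difference within slide 1, at 2.71 against 0.99, and its mean difference was 2.10 ± 1.29 (SE, limma adjusted p = 1.00).

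The early inflammatory cytokine genes Tnf and Il1b did not pass either. Tnf was at 17.34, 17.09 and 18.05 after CpG and 16.97 and 15.87 after Pam3CSK4, with a difference of 1.07 and a 95% confidence interval of -1.18 to 3.32. The Tnf groups did not overlap, although the lowest CpG array was only just above the higher Pam3CSK4 array. Il1b was at 16.14, 16.57 and 14.28 against 15.85 and 11.11 and overlapped. Within slide 1 the differences were 0.38 for Tnf and 0.29 for Il1b, and within slide 3 they were 2.17 and 3.17. Without Pam3CSK4 replicate 3 the Il1b difference was -0.19.

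**Figure D4:**
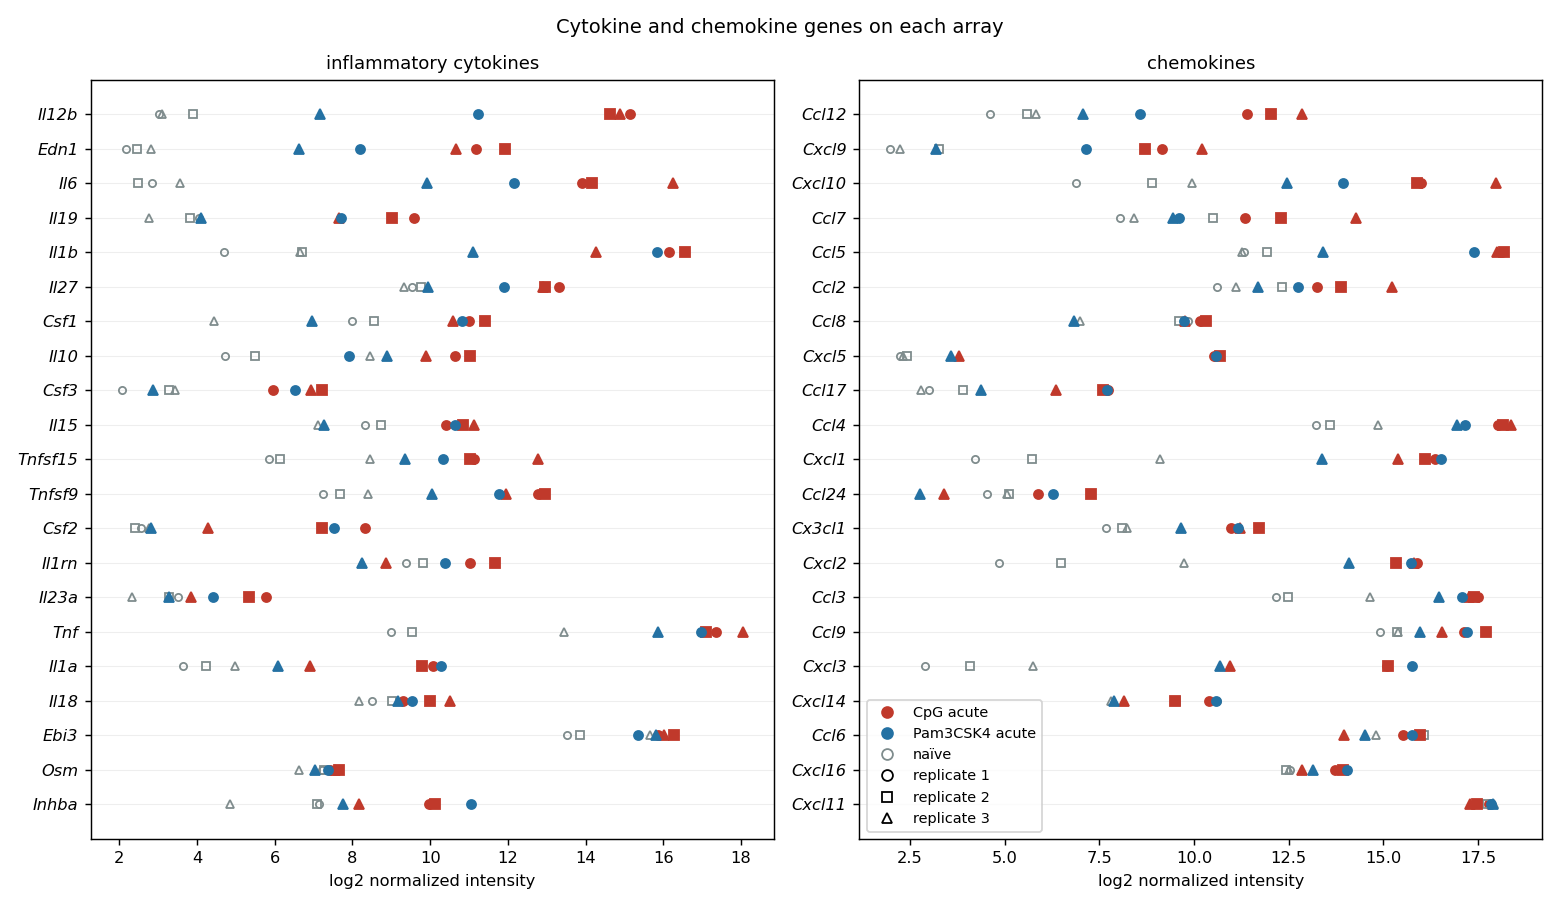
Log2 normalized intensity of the tested cytokine genes (left) and chemokine genes (right) on the acute CpG (red), acute Pam3CSK4 (blue) and naïve (open grey) arrays. Il12b has its red points at 14.64 to 15.14 and its blue points at 11.23 and 7.16, and in many genes the blue triangle, Pam3CSK4 replicate 3, lies apart from the blue circle.

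Chemokine genes also stood above naïve after both ligands, with list medians of 4.01 above naïve after CpG and 2.47 after Pam3CSK4. Of 23 listed genes 21 were tested, Ccl12 was called (0.0322% of all genes were), and 9 lay wholly higher after CpG by at least 1.5-fold (3.15% of all genes), with a median of 1.00. The largest differences after Ccl12 were in Cxcl9 (4.19) and Cxcl10 (3.41), which encode interferon-inducible ligands of the receptor CXCR3, and in the monocyte and T cell chemokines Ccl7 (3.12) and Ccl5 (2.71). Their limma adjusted p-values ranged from 0.317 to 0.525. Cxcl10 was at 15.99, 15.89 and 17.97 after CpG and at 13.94 and 12.47 after Pam3CSK4, with naïve arrays at 6.89 to 9.96. Its second probe differed by 4.14.

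The neutrophil chemokines Cxcl1, Cxcl3 and Cxcl5 differed by 1.00, 0.50 and 1.25, and their groups overlapped. Cxcl5 was at 10.52, 10.69 and 3.79 after CpG and at 10.57 and 3.59 after Pam3CSK4. It was thus low on both replicate 3 arrays, as Ltf was, and the difference within slides was -0.05 and 0.20.

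Against Pam3CSK4 replicate 1 alone these lists had lower medians. The median difference of the chemokines was then -0.06, with 10 of 21 genes positive, and that of the cytokines 0.53, with 17 of 21 positive. The counts wholly higher were 7 chemokines and 8 cytokines, and 2 genes of each list lay wholly lower, where 4.74% of all genes lay wholly higher and 5.45% wholly lower. Against Pam3CSK4 replicate 3 alone, 18 chemokines and 19 cytokines lay wholly higher, where 11.2% of all genes did.

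**Figure D5:**
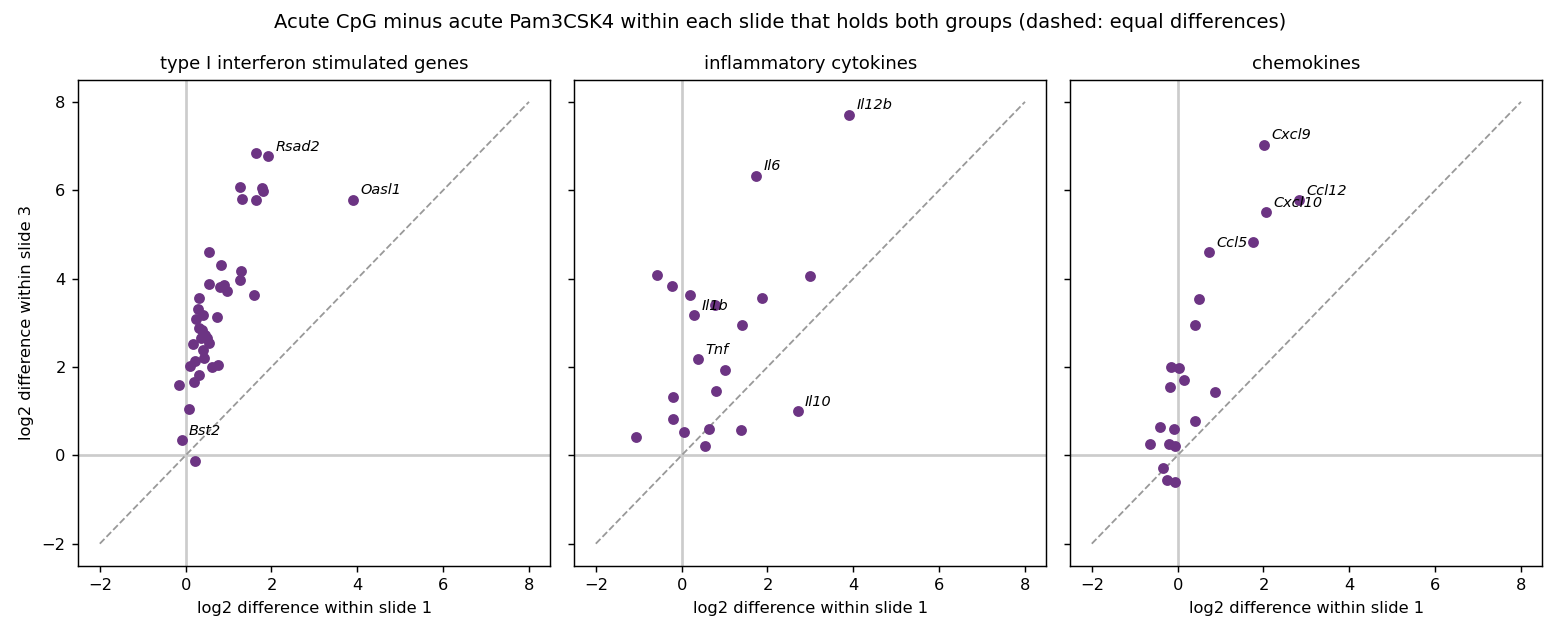
Difference, acute CpG minus acute Pam3CSK4, within slide 1 (horizontal) and within slide 3 (vertical), both in log2, for the tested genes of 3 lists, with a dashed line where both are equal. Most interferon-stimulated genes lie above the line with positive values on both axes, and Il10 lies below it, at 2.71 and 0.99.

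Tlr9, the receptor for CpG, was at 10.41, 10.27 and 10.03 after CpG and 10.64 and 10.38 after Pam3CSK4, a difference of -0.27 with a 95% confidence interval of -0.66 to 0.11. Tlr2 was at 15.84, 15.81 and 14.45 against 15.92 and 14.15, beside 11.66 to 13.32 in naïve cells. It was above naïve in both groups, and its difference was 0.33 (interval -0.85 to 1.51), or -0.55 without Pam3CSK4 replicate 3. Its partners Tlr1 and Tlr6 differed by -0.12 (-1.45 to 1.21) and 0.24 (-0.14 to 0.63). Unc93b1, which carries endosomal TLRs from the endoplasmic reticulum, differed by -0.15 (-0.51 to 0.22), Myd88 by 0.45 (-0.17 to 1.06) and the bridging adaptor Tirap by 0.05 (-0.51 to 0.60). None of these genes was called, and the sign for Tlr9, Tlr1 and Unc93b1 turns positive under median scaling, and in the list of MyD88 and TRIF signalling genes the median over 22 tested members was 0.01. Its largest differences were 1.90 in Peli1, a ubiquitin ligase gene, and -0.74 in Tab1, which couples TRAF6 to TAK1 (limma adjusted p = 0.339 and 0.559). Tlr3, the receptor for double-stranded RNA, was at 5.54, 5.95 and 7.41 after CpG and not well above background after Pam3CSK4, an estimated 4.41-fold higher (limma adjusted p = 0.483).

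NF-κB subunits and inhibitors were above naïve under both ligands, with list medians of 2.10 after CpG and 2.04 after Pam3CSK4. The median difference over 16 genes was 0.27, with 2 genes wholly higher by 1.5-fold, Tnfaip3 (1.26) and Nfkbiz (0.91), beside 3.15% of all genes, and none called. The median was -0.11 without Pam3CSK4 replicate 3 and 0.59 without replicate 1, where 7 genes lay wholly higher (11.2% of all genes). Of the enzymes, Ptgs2, the inducible prostaglandin synthase, was at 14.64, 14.73 and 14.24 against 13.93 and 10.83 (difference 2.16, limma adjusted p = 0.570). Its difference was 3.70 without Pam3CSK4 replicate 1, where it was called (limma adjusted p = 0.0441), and 0.61 without replicate 3. Nos2, the inducible nitric oxide synthase, was at 12.73, 13.69 and 11.71 against 12.72 and 8.92 and overlapped (1.89, limma adjusted p = 0.998). Within slide 1 the Nos2 difference was 0.01. The feedback genes Socs1, an inhibitor of cytokine receptor signalling, and Zfp36, which destabilizes cytokine mRNA, differed by 2.74 and 1.85 with no overlap (limma adjusted p = 0.361 and 0.346), and the MAP kinase phosphatase gene Dusp2 by 2.30 (0.510).

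Over all 5 arrays, lists for other functions of the cell had medians from -0.30 for NRF2 targets to 0.09 for DNA replication and mitosis. These were the lists for DNA replication and mitosis, cholesterol, glycolysis, NRF2 targets and scavenger receptors, in which Ch25h alone was wholly higher after CpG by 1.5-fold (difference 1.53) and no gene wholly lower by as much. The cholesterol list depended on the arrays: its median was -0.18 over all 5, -0.61 without Pam3CSK4 replicate 1, where 9 of 20 genes lay wholly lower (11.1% of all genes), and 0.23 without Pam3CSK4 replicate 3. In the list for MHC class I presentation 3 of 14 tested genes were wholly higher by 1.5-fold, Tap1, Nlrc5 and Psmb9, by 1.34, 1.26 and 0.62. In the list for MHC class II and costimulation 1 of 13 was, the checkpoint ligand gene Cd274, by 1.15. Of all genes 3.15% were, and no gene of either list was called. The medians were 0.20 and 0.23 over all 5 arrays. Without Pam3CSK4 replicate 3 they were 0.02 and -0.42, with 7 of 14 and 4 of 13 genes positive. Over all lists, 5 of 321 tested genes were at least 1.5-fold lower after CpG, Plk1, Dusp4, Tab1, Lss and Zfp36l2, at -0.64 to -0.82, and none was called.

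The same comparison in re-stimulated cells used other arrays. The median difference of the interferon-stimulated genes there was 1.31, with 40 of 41 genes positive, beside 1.57 in acute cells, and the medians were 1.11 for cytokines and 0.21 for chemokines. Oasl1 differed by 4.23 and Rsad2 by 5.11 on re-stimulation. No probe passed the test of the difference between acute and re-stimulated cells (0% of 25399, limma), where 196 (0.772%) had an unadjusted p under 0.05. Ccl12 differed by 2.03 on re-stimulation, 2.24 less than in acute cells (limma adjusted p = 1.00 for that change).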

How the data were processed

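RNA of mouse BMDM was measured on 1-colour Agilent arrays, scanned and extracted with Feature Extraction 10.7.3.1. Per the labels the authors corrected the background with RMA and quantile normalized the arrays in limma, and the deposited values are log2 normalized intensities with 1 row a probe. The labels give no versions, and the study's methods state one for limma. The scanner files deposited by the authors hold the spot intensity, from which detection flags, gene names and mm9 positions were taken and alternative normalizations made. Of 27 arrays 25 have values in the table, and 2 columns are empty.

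Groups were taken from the sample titles. The comparison was fitted in limma 3.58.1 (R 4.3.3) on 22 arrays of 8 groups, using probes detected in CpG or Pam3CSK4 cells on 2 arrays or more. Arrays of acute LPS lie on other slides and were left out. Probes with an adjusted p (Benjamini-Hochberg) under 0.05 and a difference of at least 1.5-fold were called. Genes were represented by their brightest tested probe. For a probe below background on all arrays of a group the fold is stated as "estimated". On each array of that group it used the higher of the probe's own value and the lowest signal well above background. For Trim30c, NAP070743-1, Gm2022 and the region this equals the plain fold from the group means, so it is not a lower limit. The fit was also run on simulated arrays with independent noise of capped spread and no slide effect. It therefore does not show how the fit behaves with the wider spread and the slide effects of these arrays. The number of arrays limits the precision.

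The named genes were the called probes with a gene symbol (at most 10 a direction), 19 genes fixed by role and up to 4 called members of each list. The arrays compared and the 18 gene lists and 11 marker lists were chosen with earlier results of these data known. Alternatives covered normalization, detection filter, arrays in the fit, slide as a block and leaving out arrays.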

Additional observations from a re-analysis of the deposited data

Results flagged for a closer look

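The scanner file of acute Pam3CSK4 replicate 2, for which no normalized values were used in the comparison, drew attention as data outside the main measurement. On it 99.9% of probes were well above background, where the 5 arrays compared had 43.7% to 49.1%. Of its spots 22.6% were flagged as non-uniform, where the 5 arrays had 0.0084% to 0.138%. Settings that keep this array carry that limit. Naïve replicate 3, which has normalized values, had 74.6% of probes well above background.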

How the results depend on the processing

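Remaking the RMA normalization, the stricter detection filter, the slide as a random block and an intensity trend left the counts of called probes within 1.5 times of 5 higher and 2 lower. The counts higher and lower were 3 and 1 with the processed signal scaled to the 75th percentile, 9 and 3 with median scaling, 2 and 2 with normexp, 1 and 2 with no detection filter, 9 and 2 with all 9 groups, 5 and 5 without naïve replicate 3, 3 and 1 with Pam3CSK4 replicate 2 kept from its scanner file, and 0 and 0 with only the 5 arrays. A 1.5-fold difference with no test gave 1840 and 1431, with 110 and 5 listed genes. Listed genes called higher, 2 in all, were 4 with median scaling, 1 with no detection filter or with Pam3CSK4 replicate 2 kept, and 0 with only the 5 arrays. Leaving out single acute arrays gave 0 to 33 higher, 2 to 15 lower, 0 to 13 listed genes higher, and 1 to 8 probes whose difference changed between acute and re-stimulated cells. It gave 34 to 39 interferon-stimulated genes, 8 to 19 cytokines and 7 to 18 chemokines wholly higher, beside 3.9% to 11.2% of all genes. A lone array left in a group is assumed to vary like the other groups.

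With the replicate number as a block, which is the slide, 2 probes were called higher and 2 lower, and 0 and 0 (0 listed genes) with the block and only the 5 arrays. The deviations of same-numbered acute CpG and Pam3CSK4 arrays correlated at 0.430 and 0.579, and 59 of the 68 correlations over other pairs of groups were above 0.1, with the rest, down to -0.165, all involving re-stimulated LPS. The fit without the block was the planned one and was kept, although same-numbered arrays did deviate together outside the LPS pairs. The 7 calls thus leave this pairing out, and those of Trim30c, Gbp7 and NAP070743-1 were lost with the block. The block kept 4 of the 7 calls.

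Median scaling moved the median of all probes from -0.08 to 0.36. Signs turned there for Irf5 (0.53), Tlr1 (0.44), Unc93b1 (0.43) and Tlr9 (0.19), with the 75th percentile for Irf5 (0.17), Tlr1 (0.067) and Unc93b1 (0.0099), and with Pam3CSK4 replicate 2 kept for Tlr1 (0.83) and Tlr9 (0.82). Tirap was at -0.017 with the replicate block and -0.029 with the block and 5 arrays, where Irf5 was at 0.11. Over leaving out single arrays the difference ranged from -0.38 to 0.24 for Irf5, -0.47 to 0.23 for Tlr1, -0.029 to 0.091 for Tirap, -0.35 to 0.056 for Unc93b1, -0.19 to 4.55 for Il1b, -0.55 to 1.21 for Tlr2 and -0.0085 to 3.79 for Nos2. The cause was not tested.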
